A study of Homo sapiens with 12 samples.

Results

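The 37 genes described here encode the machinery that folds, checks, exports and degrades proteins of the endoplasmic reticulum (ER), together with the sensors and transcription factors of the unfolded protein response. They were taken as a list of gene names, chosen with earlier results of these data known, and all 37 were found among the 42342 features of the MP38 count table and the 44938 features of the 92.1 count table. MP38 and 92.1 are human uveal melanoma cell lines. Each was exposed for 72 hours to DMSO, the solvent control, or to VE-822, an inhibitor of the DNA damage kinase ATR. The 4 groups are MP38 with DMSO, MP38 with VE-822, 92.1 with DMSO and 92.1 with VE-822, with 3 poly(A) RNA libraries in each. The labels give no genetic change, no drug concentration and no separate cultures for the numbered libraries, so the p-values measure the spread between these libraries, which may be technical. The series design states that VE-822 was set to leave about 40% of cells viable, and in bulk RNA fewer cells of a kind cannot be told apart from less RNA per cell.

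A set of 3 membrane sensors watches over folding in the ER. IRE1, encoded by ERN1, splices XBP1 mRNA into the form that encodes an active transcription factor, ATF6 is cut in the Golgi to release a transcription factor, and PERK, encoded by EIF2AK3, phosphorylates eIF2alpha, which lowers translation and favours that of ATF4. The transcription factors raise chaperones such as BiP (HSPA5), disulfide isomerases, and the components of ER-associated degradation, which pulls misfolded proteins out of the ER for the proteasome. Counts per gene add up all isoforms, so neither XBP1 splicing nor cleavage of ATF6 is measured in them.

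Much of the chaperone branch is known to be read out through the ER stress element, a bipartite DNA motif bound by NF-Y and, with it, ATF6 or spliced XBP1. The RefSeq promoter table (GRCh38.p14) held a window for 34 of the 37 genes, in 43 windows. Searched on both strands over the 250 bases before the start site, the element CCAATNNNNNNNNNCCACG occurred in 8 of these genes (HSPA5, HSP90B1, CALR, CANX, CRELD2, PDIA6, ERO1B and XBP1), which is 20.9% of their windows against 0.074% of all 35116 windows. The shorter form ATTGGNCCACG occurred in HYOU1, HERPUD1 and SDF2L1, or 6.98% of the windows against 0.0513% of all. The 8-base element TGACGTGG was found in HYOU1 and in TXNDC5, or 4.65% of the windows against 0.612% of all. HYOU1 holds the shorter form at 79 to 69 and at 185 to 175 bases before the start site. TGACGTGG overlaps only the copy at 185 to 175, and the HYOU1 stretch below shows the copy at 79 to 69. A match is a description of the letters and not evidence of binding. The stretches below belong to the 7 genes whose match to either form of the ER stress element lies outside annotated exons and gene spans. They are written on the strand of the gene with the matched element in capitals, which reads as the reverse complement where the element lies on the other strand (CALR, ERO1B, SDF2L1 and HYOU1). The coordinates are chr9:125241383-125241429 for HSPA5 (minus strand), chr19:12938364-12938422 for CALR (plus), chr22:28800598-28800641 for XBP1 (minus), chr1:236282163-236282208 for ERO1B (minus), chr16:56932005-56932047 for HERPUD1 (plus), chr22:21642094-21642144 for SDF2L1 (plus) and chr11:119057254-119057304 for HYOU1 (minus).
HSPA5: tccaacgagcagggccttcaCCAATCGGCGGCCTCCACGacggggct
CALR: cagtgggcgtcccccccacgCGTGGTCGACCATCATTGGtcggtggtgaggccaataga
XBP1: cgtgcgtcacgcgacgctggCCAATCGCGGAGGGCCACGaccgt
ERO1B: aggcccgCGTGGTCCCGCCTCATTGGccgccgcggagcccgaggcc
HERPUD1: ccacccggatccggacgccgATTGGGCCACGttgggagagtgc
SDF2L1: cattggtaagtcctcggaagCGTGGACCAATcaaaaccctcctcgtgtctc
HYOU1: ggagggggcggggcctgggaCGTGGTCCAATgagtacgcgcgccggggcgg

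Libraries held 54415628 to 63638976 counts in MP38 and 112374503 to 137664800 counts in 92.1, and all 37 genes passed the filter on low counts in every fit. Of 7 melanocyte genes, PMEL and MLANA were abundant in both lines. With DMSO they were at 542 and 52.2 FPKM in MP38 and at 1713 and 122 FPKM in 92.1. The list was not uniform. TYRP1 was at 7.86 FPKM with DMSO in MP38 and at 2913 FPKM in 92.1, and DCT at 85.6 and 1.61 FPKM. Fibroblast, immune and endothelial markers stayed under 1 FPKM in every library. Of 5 epithelial markers 3 did so in MP38, where KRT18 reached 17.3 FPKM, and all 5 in 92.1. Values below are CPM, read counts scaled to a common library total and normalised within each line, fold changes are log2 of VE-822 over DMSO, and "rose" or "fell" is used for an adjusted p under 0.05 in edgeR's quasi-likelihood test over all genes.

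The DMSO library numbered 3 stood apart in both lines, in different ways, and the 37 genes are among those it moves. In MP38 it was the lowest of the 3 DMSO libraries in 35 of the 37 genes, while 40.1% of the 11487 genes at or above 5 CPM were lowest there. Its level over the mean of the other 2 had a median of 0.859 over the 37 genes, and was 0.57 for SDF2L1, 0.61 for MANF, 0.64 for HSPA5 and 0.65 for CALR. In 92.1 this library held 2.95 times the XBP1 and 2.62 times the HERPUD1 of the other 2, but 0.56 times the SDF2L1, 0.62 times the MANF and 0.66 times the CALR. It was the lowest of the 3 DMSO libraries of 92.1 in 23 of the 37 genes and the highest in 10. Of the 11110 genes at or above 5 CPM there, 52% were lowest and 39% highest in it. Of 14 genes listed as the PERK arm and its targets, 13 lay above the mean of the other 2 libraries there, with a median ratio of 3.03. The highest ratio was 15.99 for ASNS, the asparagine synthetase that ATF4 induces. In MP38 13 of the same 14 lay below the mean of the other 2, with a median ratio of 0.85. EIF2AK3, which encodes PERK, had a ratio of 0.85 in both lines. The list is named for PERK, but other kinases also phosphorylate eIF2alpha. Which kinase acted was not tested.

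**Figure D1:**
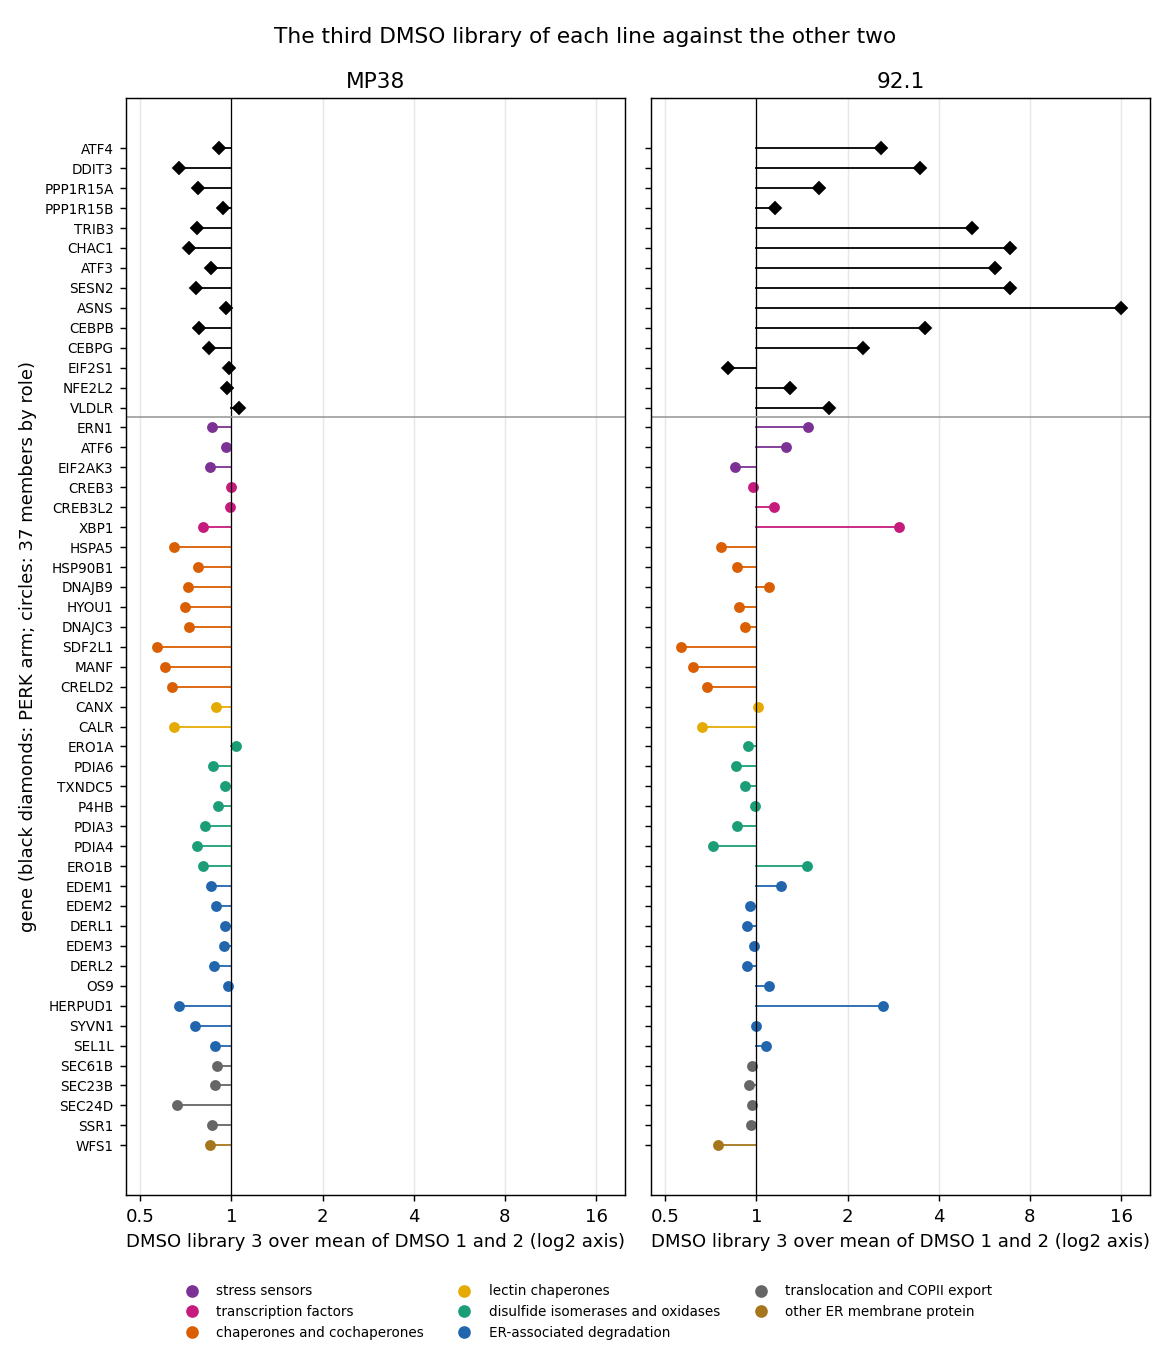
Each point is the CPM of a gene in DMSO library 3 divided by its mean in DMSO libraries 1 and 2 (log2 axis), in MP38 (left) and 92.1 (right). Black diamonds are 14 genes of the PERK arm and coloured circles the 37 members by role. In MP38 36 of the 37 circles lie below 1, and in 92.1 XBP1 (2.95) and HERPUD1 (2.62) lie above 1 together with 13 of the 14 diamonds.

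In MP38 11 of the 37 genes rose, 15 fell and 11 did not pass the test. Over all 21415 genes tested 26.9% rose and 25.4% fell, and the median log2 fold change was -0.08 for the 37 genes and -0.01 for all. In 92.1 1 gene rose, 16 fell and 20 did not pass, where 20.3% of 22943 genes rose and 19.6% fell. The median was -0.19 for the 37 genes and 0.03 for all genes tested. 4 genes rose in MP38 and fell in 92.1 (CANX, CREB3L2, DERL1 and ERO1A), and DNAJB9 fell in MP38 and rose in 92.1. PDIA4, SEL1L and DERL2 fell in both. ATF6 and EIF2AK3 passed in neither. Once DMSO library 3 of the line was left out, 9 of the 37 rose and 22 fell in MP38, where 24.4% of 22057 genes rose and 23.2% fell. In 92.1 4 rose and 24 fell without it, where 26.8% of 23816 genes rose and 29% fell. The counts by role below are to be read beside these shares of all genes.

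**Figure D2:**
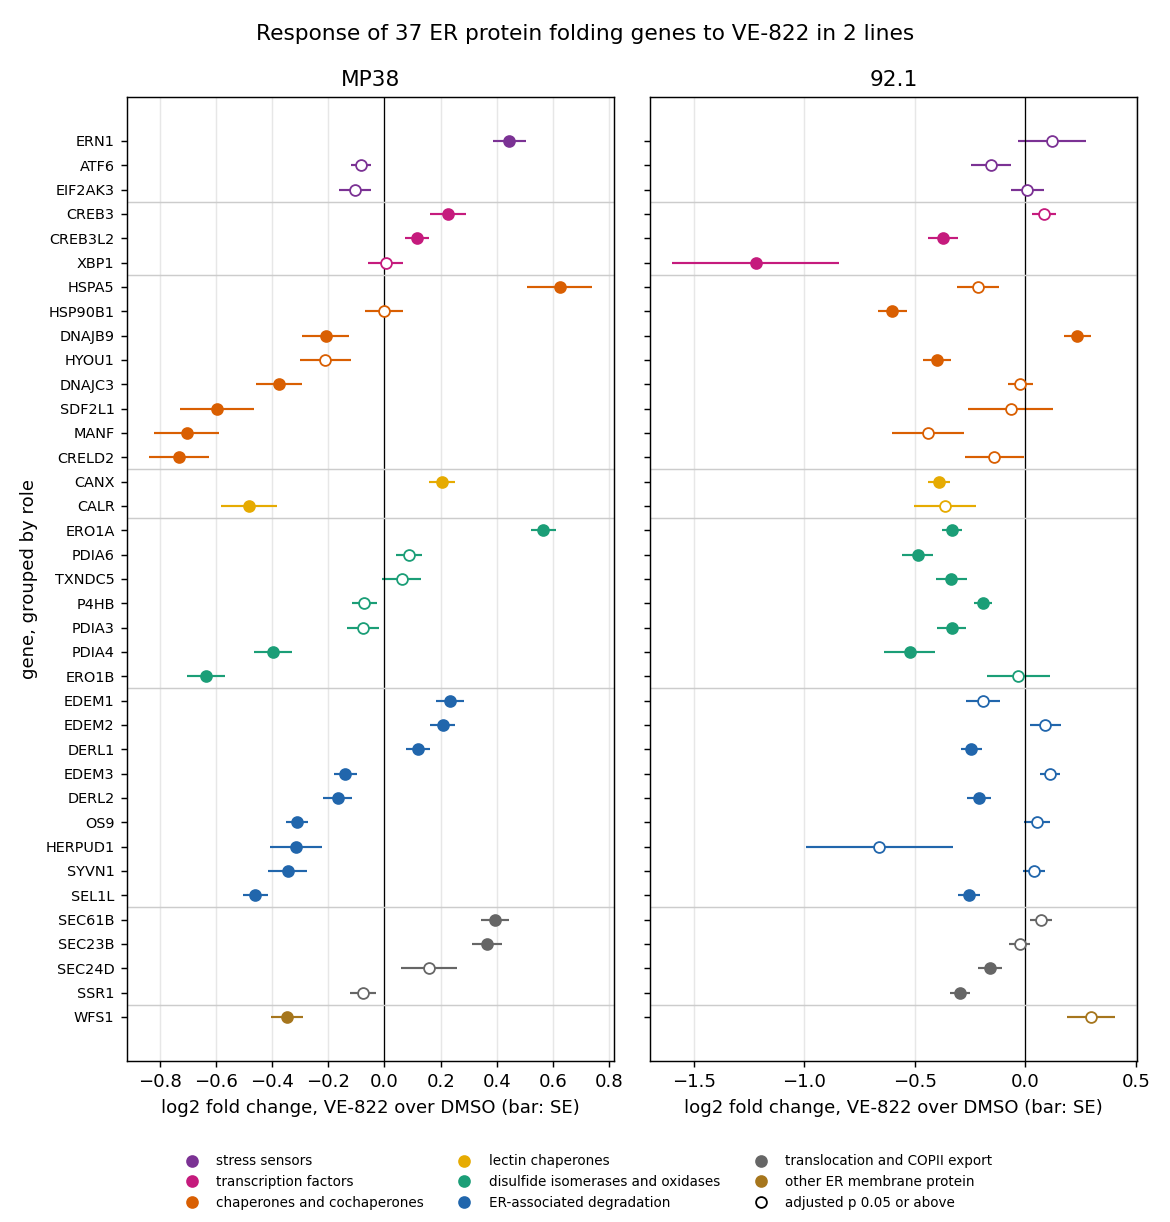
The log2 fold change of VE-822 over DMSO with its SE for the 37 genes in MP38 (left) and 92.1 (right, wider axis), grouped by role; n = 3 libraries per group. Filled points have an adjusted p under 0.05. HSPA5 is the highest in MP38 at 0.62 while CRELD2 is the lowest at -0.73, and in 92.1 XBP1 is the lowest at -1.22 with the widest bar.

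Of the 3 sensor genes, ERN1 rose in MP38, and no other sensor passed the test in either line with all libraries. ERN1 stood at 50.6, 53.97 and 45.2 CPM with DMSO and 65.7, 64.1 and 73.95 CPM with VE-822 in that line, and every treated library was above every control (log2 fold change 0.44, SE 0.06, adjusted p = 1.62e-06). In 92.1 ERN1 was at 14.9, 12.2 and 20.0005 CPM with DMSO and 17.1, 16.2 and 17.9 CPM with VE-822, with DMSO library 3 above all 3 treated libraries (log2 fold change 0.12, SE 0.15, adjusted p = 0.57). Without that library the 92.1 value was 0.30 (adjusted p = 0.00114), so the rise was then called in both lines, and the difference between lines was -0.29 (SE 0.17, adjusted p = 0.194), called without DMSO library 2 of 92.1, -0.44 (adjusted p = 0.0191). ATF6 was at 102, 105 and 99.9 CPM with DMSO and 96.4, 95.5 and 98.4 CPM with VE-822 in MP38, where the treated libraries lay below the controls (log2 fold change -0.08, SE 0.04, adjusted p = 0.0627). It was at 70.8, 70.7 and 88.5 CPM with DMSO and 71.5, 69.9 and 65.2 CPM with VE-822 in 92.1, where the groups overlapped (log2 fold change -0.15, SE 0.09, adjusted p = 0.204). EIF2AK3 was at 34.3, 33.9 and 28.9 CPM with DMSO and 31.2, 29.4 and 29.7 CPM with VE-822 in MP38 and at 20.5, 20.995 and 17.6 CPM with DMSO and 19.9, 19.9 and 19.8 CPM with VE-822 in 92.1, with overlapping groups in both lines. Its log2 fold change was -0.10 (SE 0.06, adjusted p = 0.133) in MP38 and 0.01 (SE 0.07, adjusted p = 0.936) in 92.1. Without DMSO library 3, ATF6 at -0.11 (adjusted p = 0.0248) and EIF2AK3 at -0.19 (adjusted p = 0.00351) were called lower in MP38.

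Of the 3 transcription factors 2 rose in MP38 and 2 fell in 92.1. XBP1 in MP38 was at 273, 262 and 216 CPM with DMSO and 246, 243 and 264 CPM with VE-822, where the groups overlapped (log2 fold change 0.0039, SE 0.06, adjusted p = 0.963). In 92.1 it was at 67.2, 66.4 and 197 CPM with DMSO and 48.6, 46.4 and 47.2 CPM with VE-822, and all 3 treated libraries lay below all controls (log2 fold change -1.22, SE 0.38, adjusted p = 0.0315). The size of that fall rests on DMSO library 3: without it XBP1 fell by less, -0.53 (adjusted p = 1.72e-10). With it the call was lost in DESeq2, -1.23 (adjusted p = 0.0647), and in the robust form of the fit (adjusted p = 0.143). The call was lost too in limma on log2(FPKM + 1), -0.91 (adjusted p = 0.126), and whenever any 1 treated library was left out (adjusted p up to 0.11). CREB3L2, a membrane-bound factor of the ATF6 type that drives secretory pathway genes, was at 232, 236 and 231 CPM with DMSO and 245, 240.3 and 271 CPM with VE-822 in MP38 and at 75.01, 70.4 and 83.1 CPM with DMSO and 59.8, 60.3 and 56.3 CPM with VE-822 in 92.1. It rose slightly in MP38, 0.12 (SE 0.04, adjusted p = 0.0299), a call lost when any DMSO library or treated library 3 was left out (adjusted p up to 0.12), and fell in 92.1, -0.37 (SE 0.07, adjusted p = 0.00254). CREB3, its relative, rose in MP38 by 0.23, a call lost without DMSO library 2, 0.15 (adjusted p = 0.0631), and was at 0.09 (SE 0.06, adjusted p = 0.256) in 92.1.

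Of 8 chaperones and cochaperones 1 rose, 5 fell and 2 did not pass in MP38, and 1 rose, 2 fell and 5 did not pass in 92.1. When DMSO library 3 was omitted, 1 rose and 7 fell in each line. HSPA5, the main Hsp70 chaperone of the ER and the usual reporter of ER stress, had the highest log2 fold change of the 37 genes in MP38 with all libraries. It stood at 1087, 1065 and 694 CPM with DMSO and 1327, 1321 and 1735 CPM with VE-822, and the lowest treated library was above the highest control (log2 fold change 0.62, SE 0.12, adjusted p = 0.000135). Without DMSO library 3 the value was 0.44 (adjusted p = 4.72e-05), below that of the oxidase ERO1A, 0.58 (adjusted p = 3.24e-09). Among the alternatives run, the call was lost in the robust form of the fit, 0.62 (adjusted p = 0.0941). In 92.1 HSPA5 was at 545, 548 and 418 CPM with DMSO and 441, 429 and 432 CPM with VE-822, where DMSO library 3 lay below the treated libraries and the other 2 controls above them (log2 fold change -0.21, SE 0.10, adjusted p = 0.112). Without it the gene fell, -0.36 (adjusted p = 4.4e-09). With all libraries HSPA5 was called lower there with no filter, -0.25 (adjusted p = 0.00275). The difference in response, 92.1 minus MP38, was -0.81 (SE 0.21, adjusted p = 0.00491), and it stayed called without the DMSO libraries numbered 3 of both lines, -0.75 (adjusted p = 5e-08).

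HSP90B1 (GRP94), the Hsp90 of the ER, was not called in MP38. It was at 745, 710.3 and 563 CPM with DMSO and 676, 667 and 673 CPM with VE-822 in MP38, with the treated libraries between the controls (log2 fold change -0.0017, SE 0.07, adjusted p = 0.986). In 92.1 it was at 863, 842 and 737 CPM with DMSO and 548, 538 and 523 CPM with VE-822 and fell with no overlap (log2 fold change -0.60, SE 0.07, adjusted p = 0.000164). The difference between lines was -0.57 (SE 0.12, adjusted p = 0.000899). Without DMSO library 3 HSP90B1 was called lower in MP38 as well, -0.12 (adjusted p = 0.0125).

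The 5 chaperone genes that fell in MP38 were CRELD2, MANF, SDF2L1, DNAJC3 and DNAJB9. CRELD2, a secreted ER stress protein with isomerase activity, was at 88.1, 88.3 and 56.1 CPM with DMSO and 44.7, 47.1 and 48.2 CPM with VE-822 (log2 fold change -0.73, SE 0.11, adjusted p = 6.29e-06). MANF, which binds BiP and slows its release of nucleotide, was at 87.2, 87.02 and 52.7 CPM with DMSO and 46.01, 45.9 and 47.3 CPM with VE-822 (log2 fold change -0.70, SE 0.11, adjusted p = 2.76e-05). In both genes every treated library was below every control, and DMSO library 3 was the control nearest to them. SDF2L1, part of an ER DNAJ chaperone complex, was at 44.2, 45.6 and 25.6 CPM with DMSO and 24.2, 27.4 and 24.6 CPM with VE-822, where DMSO library 3 overlapped the treated libraries (log2 fold change -0.60, SE 0.13, adjusted p = 0.00066). Without that library the 3 log2 fold changes were -0.92 (adjusted p = 1.17e-13) for CRELD2, -0.91 (adjusted p = 6.33e-14) for MANF and -0.83 (adjusted p = 4.56e-11) for SDF2L1. DNAJC3 (p58IPK), a BiP cochaperone, fell in MP38 (-0.38) with overlapping groups. In the robust fit MANF (adjusted p = 0.065), SDF2L1 (adjusted p = 0.14) and DNAJC3 (adjusted p = 0.11) were not called, nor was SDF2L1 in DESeq2 (adjusted p = 0.053).

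In 92.1 MANF, CRELD2 and SDF2L1 were not called with all libraries in the filtered edgeR fit. DESeq2 called MANF lower, -0.47 (adjusted p = 0.0129), as did edgeR with no filter, -0.47 (adjusted p = 0.000135). MANF was at 32.2, 32.2 and 19.95 CPM with DMSO and 20.9, 20.7 and 20.4 CPM with VE-822, CRELD2 at 42.01, 44.2 and 29.6 CPM with DMSO and 34.4, 36.7 and 33.998 CPM with VE-822 and SDF2L1 at 18.7, 17.9 and 10.3 CPM with DMSO and 15.5, 15.3 and 14.02 CPM with VE-822, and in each of the 3 genes DMSO library 3 was the lowest of the 6. The log2 fold changes were -0.44 (SE 0.16, adjusted p = 0.0581), -0.14 (SE 0.13, adjusted p = 0.434) and -0.07 (SE 0.19, adjusted p = 0.81). Without that library all 3 were called lower, at -0.67 (adjusted p = 7.08e-11), -0.33 (adjusted p = 1.38e-06) and -0.32 (adjusted p = 2.81e-05). The response of CRELD2 differed between lines by 0.62 (SE 0.21, adjusted p = 0.0283), and that call was lost in DESeq2, 0.57 (adjusted p = 0.076), and without DMSO library 1 or 2 of MP38 or any 1 treated library (adjusted p up to 0.11). DNAJB9 (ERdj4), a cochaperone that restrains IRE1, was at 57.6, 57.05 and 41.1 CPM with DMSO and 42.6, 44.4 and 47.6 CPM with VE-822 in MP38 and fell with overlapping groups (log2 fold change -0.21, SE 0.08, adjusted p = 0.0415), a call lost in DESeq2, -0.21 (adjusted p = 0.289), and without DMSO library 1 or 2 or treated library 1 or 2 (adjusted p up to 0.24). In 92.1 it was at 17.6, 17.3 and 19.2 CPM with DMSO and 21.4, 21.6 and 20.7 CPM with VE-822 and was the only one of the 37 to rise (log2 fold change 0.24, SE 0.06, adjusted p = 0.0163), a call lost when DMSO library 1 or 2 or treated library 1 or 2 was left out (adjusted p up to 0.078). HYOU1 (GRP170), the exchange factor of BiP, was at -0.21 (SE 0.09, adjusted p = 0.0602) in MP38 and fell in 92.1, -0.40 (SE 0.06, adjusted p = 0.00123). HYOU1 was called in MP38 too without DMSO library 3, -0.37 (adjusted p = 7.19e-06), or treated library 3, -0.30 (adjusted p = 0.0074). DNAJC3 was at -0.02 (SE 0.06, adjusted p = 0.782) in 92.1 and was called lower there without DMSO library 3, -0.09 (adjusted p = 0.0318).

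**Figure D3:**
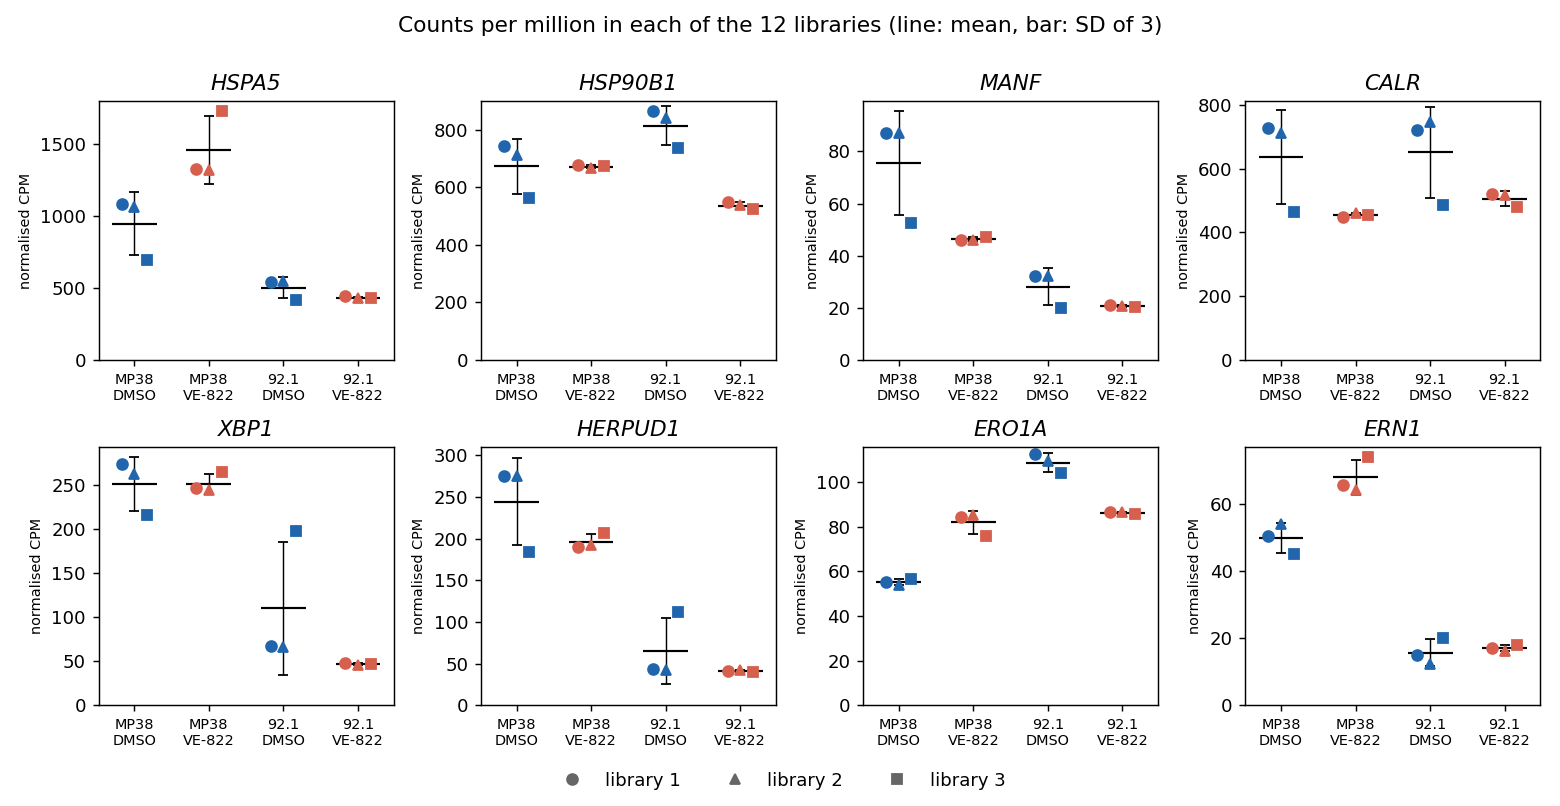
Normalised CPM of 8 of the 37 genes in each of the 12 libraries, blue for DMSO and red for VE-822, with the mean and SD of 3 libraries in black; marker shape gives the library number. HSPA5 in MP38 lies at 694 to 1087 CPM with DMSO and at 1321 to 1735 CPM with VE-822, and the square of DMSO library 3 lies low for HSPA5, MANF and CALR in both lines and high for XBP1 and HERPUD1 in 92.1.

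HSPA5 and some other ER folding genes changed unequally in MP38, which shows within single libraries. The ratio of HSPA5 to MANF was 12.5, 12.2 and 13.2 in the DMSO libraries and 28.8, 28.8 and 36.7 in the VE-822 libraries of MP38. The ratio of HSPA5 to CALR was 1.493, 1.496 and 1.492 with DMSO and 2.95, 2.87 and 3.81 with VE-822. DMSO library 3, which was low for each gene alone, did not stand apart in these ratios. In 92.1 the ratio to MANF was 16.96, 17.002 and 20.94 with DMSO and 21.07, 20.7 and 21.2 with VE-822, so that DMSO libraries 1 and 2 lay below the treated libraries and DMSO library 3 among them, and the ratio to CRELD2 overlapped between treatments. These ratios were chosen after the values were seen and are given without a test. The genes set against HSPA5 (MANF, CRELD2, SDF2L1 and CALR) all fell in MP38, so the ratios restate those fold changes. Ratios to HYOU1, DNAJC3 and DNAJB9 were not taken.

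**Figure D4:**
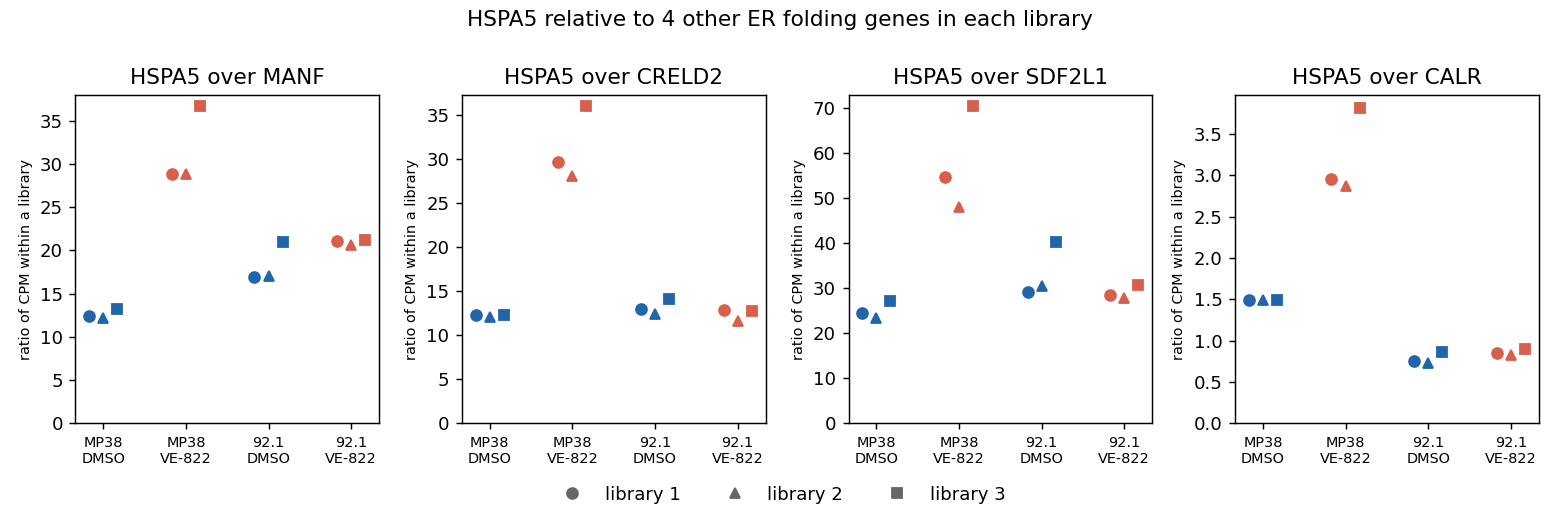
CPM of HSPA5 divided by the CPM of MANF, CRELD2, SDF2L1 and CALR within each library (linear axes from 0), blue for DMSO and red for VE-822. The MP38 control libraries lie together for all 4 ratios and the treated ones lie above them, for example 12.2 to 13.2 against 28.8 to 36.7 for MANF, while in 92.1 DMSO library 3 lies among or above the treated libraries.

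The lectin chaperones, which hold glycoproteins during folding, diverged in MP38. CALR, the lumenal calreticulin, was at 728, 712 and 465 CPM with DMSO and 449.7, 459.6 and 455 CPM with VE-822 and fell (log2 fold change -0.48, SE 0.10, adjusted p = 0.000384), although DMSO library 3 was only just above the treated libraries and the robust fit lost the call, -0.48 (adjusted p = 0.116). CANX, the membrane-bound calnexin, was at 909, 922 and 815 CPM with DMSO and 1016, 996 and 1040.2 CPM with VE-822 and rose with no overlap (log2 fold change 0.21, SE 0.05, adjusted p = 0.000726). In 92.1 CANX was at 1442, 1402 and 1436 CPM with DMSO and 1131, 1086 and 1048 CPM with VE-822 and fell with no overlap (log2 fold change -0.39, SE 0.05, adjusted p = 0.000384), so that the response differed, -0.57 (SE 0.07, adjusted p = 6.79e-06). CALR in 92.1 was at -0.36 (SE 0.14, adjusted p = 0.0699) and was called lower without DMSO library 3, -0.57 (adjusted p = 1.19e-10). With all libraries it was called lower in DESeq2, -0.39 (adjusted p = 0.0219), and with the replicate block, -0.34 (adjusted p = 0.036). The edgeR fit with no filter called it too, -0.40 (adjusted p = 4.11e-05).

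Disulfide isomerases and their oxidases form and shuffle disulfide bonds. In 92.1 6 of 7 fell, and in MP38 1 rose, 2 fell and 4 did not pass; without DMSO library 3, 4 fell in MP38. ERO1A, the oxidase that recharges PDI, was at 55.3, 54.04 and 56.7 CPM with DMSO and 84.4, 85.3 and 76.04 CPM with VE-822 in MP38 and rose with no overlap (log2 fold change 0.57, SE 0.04, adjusted p = 1.23e-09). In 92.1 it was at 113, 109 and 104 CPM with DMSO and 86.4, 86.6 and 85.7 CPM with VE-822 and fell with no overlap (log2 fold change -0.33, SE 0.05, adjusted p = 0.000663). The difference of -0.87 (SE 0.07, adjusted p = 1.33e-07) had the smallest adjusted p of the 37 genes. Its paralog ERO1B went the other way in MP38, from 26.4, 26.4 and 21.3 CPM to 16.2, 15.99 and 15.5 CPM (log2 fold change -0.64, SE 0.07, adjusted p = 1.34e-07). In 92.1 ERO1B was at 11.7, 12.7 and 18.01 CPM with DMSO and 14.04, 13.8 and 13.7 CPM with VE-822, with overlap (log2 fold change -0.03, SE 0.14, adjusted p = 0.881), and without DMSO library 3 it was called higher, 0.15 (adjusted p = 0.0235).

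PDIA4 and PDIA6 belong to the BiP-associated isomerases, and both had falls in 92.1. PDIA4 was at 187, 181 and 132 CPM with DMSO and 119.9, 116 and 112 CPM with VE-822 there (log2 fold change -0.52, SE 0.12, adjusted p = 0.00733). It was at 549, 551 and 422 CPM with DMSO and 378, 388 and 389 CPM with VE-822 in MP38 and fell there too (log2 fold change -0.40, SE 0.07, adjusted p = 4.31e-05). Neither line had overlapping groups for PDIA4, and the difference between lines was -0.10 (SE 0.16, adjusted p = 0.657), called without DMSO library 3 of 92.1, -0.29 (adjusted p = 0.00931), and without that library of both lines, -0.13 (adjusted p = 0.0417). PDIA6 was at 249.8, 252 and 215 CPM with DMSO and 173, 177 and 161 CPM with VE-822 in 92.1, a clear fall (log2 fold change -0.49, SE 0.07, adjusted p = 0.000776). In MP38 PDIA6 was at 286, 279.8 and 246 CPM with DMSO and 283, 287 and 292 CPM with VE-822, where the groups overlapped (log2 fold change 0.09, SE 0.05, adjusted p = 0.129), and the difference was -0.55 (SE 0.10, adjusted p = 0.000266). P4HB, protein disulfide isomerase itself, was at 517, 506 and 462 CPM with DMSO and 457, 466 and 490.1 CPM with VE-822 in MP38 and at 474, 471 and 468 CPM with DMSO and 417, 416 and 406 CPM with VE-822 in 92.1. It fell in 92.1 by a small step without overlap, -0.19 (SE 0.04, adjusted p = 0.007), and was at -0.07 (SE 0.04, adjusted p = 0.188) in MP38, called there without DMSO library 3, -0.13 (adjusted p = 0.0111), or treated library 3, -0.10 (adjusted p = 0.0446). PDIA3, the isomerase that works with the lectin chaperones, fell in 92.1 (-0.33), as did its relative TXNDC5 (-0.33), and neither passed in MP38 with all libraries (PDIA3 without DMSO library 3: -0.17 (adjusted p = 0.000781)).

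All 9 genes of ER-associated degradation passed in MP38, 3 upward and 6 downward, and 3 of 9 fell and 6 did not pass in 92.1. With DMSO library 3 left out, 2 rose and 6 fell in MP38 and 4 fell in 92.1. Over all genes tested 26.9% rose and 25.4% fell in MP38 and 19.6% fell in 92.1. Without that library these shares were 24.4%, 23.2% and 29%. SEL1L, the scaffold of the HRD1 ubiquitin ligase, fell in MP38 (-0.46) and in 92.1 (-0.26). The ligase SYVN1 (HRD1) fell in MP38, -0.34 (SE 0.07, adjusted p = 0.00031), a call lost in the robust fit, -0.34 (adjusted p = 0.0763), and was at 0.04 (SE 0.05, adjusted p = 0.552) in 92.1. OS9, the lectin that hands glycoproteins to this ligase, was at 273, 269 and 264 CPM with DMSO and 211, 210.2 and 228 CPM with VE-822 in MP38, a fall with no overlap (log2 fold change -0.31, SE 0.04, adjusted p = 1.18e-06). In 92.1 OS9 was at 141, 145 and 158 CPM with DMSO and 162, 146 and 152 CPM with VE-822, with overlap (log2 fold change 0.05, SE 0.06, adjusted p = 0.516), and the response differed by 0.39 (SE 0.07, adjusted p = 0.000494). HERPUD1, which recruits the ligase and is a PERK and ATF6 target, was at 274, 274 and 184 CPM with DMSO and 189.6, 192 and 207 CPM with VE-822 in MP38 (log2 fold change -0.31, SE 0.09, adjusted p = 0.00804). In 92.1 it was at 43.1, 42.01 and 111 CPM with DMSO and 41.8, 42.2 and 40.3 CPM with VE-822, where DMSO library 3 stood alone (log2 fold change -0.66, SE 0.33, adjusted p = 0.149), and without it at -0.07 (adjusted p = 0.104). With all libraries HERPUD1 was called lower in 92.1 with no filter, -0.69 (adjusted p = 0.000193). The fall of HERPUD1 in MP38 did not hold in DESeq2, at -0.31 (adjusted p = 0.156), nor when control library 1, at -0.23 (adjusted p = 0.067), or control library 2, at -0.23 (adjusted p = 0.0566), was left out.

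The mannosidase-like EDEM proteins, which mark glycoproteins for degradation, split in MP38. EDEM1 rose by 0.23 and EDEM2 by 0.21, while EDEM3 fell (-0.14), a call lost without DMSO library 1 or treated library 2 (adjusted p up to 0.065). In 92.1 EDEM1 was at -0.19 (SE 0.08, adjusted p = 0.0807), called lower without DMSO library 3, -0.13 (adjusted p = 0.00427), or 2, -0.25 (adjusted p = 0.0469), EDEM2 was at 0.09 (SE 0.07, adjusted p = 0.341) and EDEM3 at 0.11 (SE 0.05, adjusted p = 0.0841). With all libraries EDEM1 was called lower there in DESeq2, -0.21 (adjusted p = 0.0372), and with RLE factors, -0.21 (adjusted p = 0.0477). EDEM3 was called higher with library size only, 0.18 (adjusted p = 0.00804). DERL2, a derlin of the retrotranslocation channel, was at 28.1, 28.7 and 26.4 CPM with DMSO and 23.9, 23.9 and 24.2 CPM with VE-822 in 92.1 and at 42.4, 44.7 and 38.2 CPM with DMSO and 38.1, 36.5 and 37.02 CPM with VE-822 in MP38. It fell in 92.1, -0.21 (SE 0.06, adjusted p = 0.0169), and in MP38, -0.17 (SE 0.05, adjusted p = 0.00924), in each case without overlap, though leaving out DMSO library 2 ended the call in 92.1 (adjusted p = 0.062), as did leaving out any treated library (adjusted p up to 0.071), and in MP38 (adjusted p = 0.084). DERL1 rose by 0.12 in MP38 and fell in 92.1, -0.24 (SE 0.05, adjusted p = 0.00364); the MP38 call was lost without DMSO library 2, without DMSO library 3 or without treated library 1 (adjusted p up to 0.104).

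Of the 4 genes of entry into and export from the ER, 2 rose in MP38 and 2 fell in 92.1. SEC61B, a subunit of the translocation channel, was at 55.3, 54.4 and 49.3 CPM with DMSO and 67.4, 66.99 and 74.5 CPM with VE-822 in MP38 and rose with no overlap (log2 fold change 0.39, SE 0.05, adjusted p = 8.92e-07). In 92.1 SEC61B was at 41.1, 40.9 and 39.6 CPM with DMSO and 43.3, 42.5 and 41.9 CPM with VE-822 (log2 fold change 0.07, SE 0.05, adjusted p = 0.281), and the lines differed, -0.29 (SE 0.08, adjusted p = 0.00581). SEC23B, a COPII coat subunit, rose in MP38, 0.36 (SE 0.05, adjusted p = 7.71e-06), and was at -0.03 (SE 0.05, adjusted p = 0.709) in 92.1, called lower there without DMSO library 3, -0.08 (adjusted p = 0.0366). SEC24D, the cargo adaptor of the same coat, was at 21.2, 20.8 and 20.3 CPM with DMSO and 18.3, 18.7 and 18.9 CPM with VE-822 in 92.1, a shallow fall (log2 fold change -0.16, SE 0.05, adjusted p = 0.0456) that was lost when either of DMSO libraries 1 and 2 or any treated library was left out (adjusted p up to 0.14). In MP38 it was at 40.4, 39.9 and 26.5 CPM with DMSO and 41.1, 36.9 and 41.2 CPM with VE-822 with overlap (log2 fold change 0.16, SE 0.10, adjusted p = 0.194); the value was 0.26 (adjusted p = 0.0498) without DMSO library 1 and -0.02 (adjusted p = 0.758) without DMSO library 3. SSR1, of the translocon-associated complex, fell in 92.1 (-0.29) and was called lower in MP38 without DMSO library 3, -0.15 (adjusted p = 0.00238). WFS1, an ER membrane protein that restrains ATF6, fell in MP38, -0.35 (SE 0.06, adjusted p = 4.03e-05), and was at 0.30 (SE 0.11, adjusted p = 0.0581) in 92.1, called higher there without DMSO library 3, 0.14 (adjusted p = 0.00899). With all libraries WFS1 was called higher in 92.1 with the replicate block, 0.31 (adjusted p = 0.0259), and with library size only, 0.37 (adjusted p = 0.0285).

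The response differed between the lines in 21 of the 37 genes, tested as an interaction over all 12 libraries. Line, count table and sequencing depth go together in this test, and no drug concentration is given, so these cannot be told apart. The change was higher in 92.1 for 9 and higher in MP38 for 12, where 22.1% and 18.8% of 24958 genes were called in those directions. The median difference was -0.11 for the 37 genes and 0.11 for all genes tested. By role, the difference was called toward MP38 for HSPA5, HSP90B1, CANX, ERO1A, PDIA6, TXNDC5, XBP1, CREB3L2, EDEM1, DERL1, SEC61B and SEC23B. It was called toward 92.1 for DNAJB9, DNAJC3, CRELD2, ERO1B, SEL1L, SYVN1, OS9, EDEM3 and WFS1. CREB3L2 had a difference of -0.46 (SE 0.08, adjusted p = 0.000375). Among the sensors the values were -0.29 (SE 0.17, adjusted p = 0.194) for ERN1, -0.04 (SE 0.10, adjusted p = 0.771) for ATF6 and 0.14 (SE 0.11, adjusted p = 0.306) for EIF2AK3. Without the DMSO libraries numbered 3 of both lines, 13 were called toward 92.1 and 15 toward MP38, where 23.9% and 21.1% of 25697 genes were called in those directions. The 7 added were SDF2L1, MANF, CALR and HERPUD1 toward 92.1 and PDIA3, PDIA4 and SSR1 toward MP38, among them HERPUD1 with 0.47 (adjusted p = 4.83e-08) against -0.31 (SE 0.37, adjusted p = 0.534) with all libraries.

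**Figure D5:**
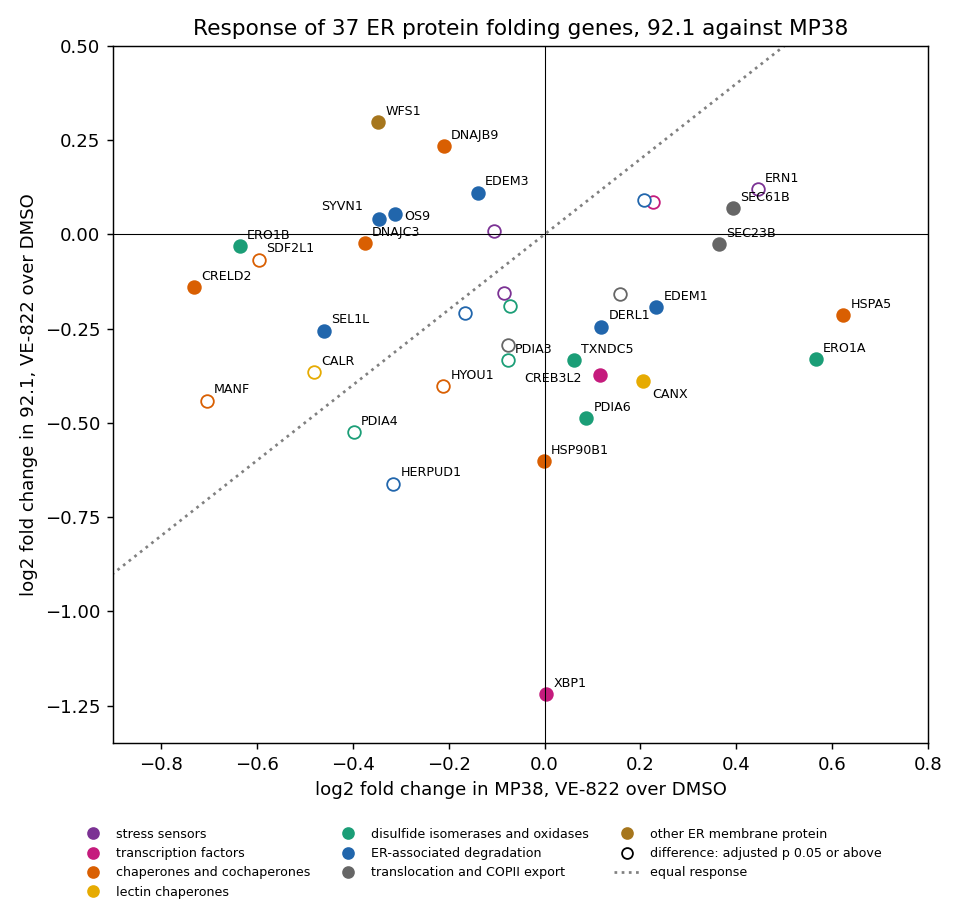
The log2 fold change of each of the 37 genes in MP38 (horizontal) and in 92.1 (vertical); the dotted line marks an equal response, and filled points have an adjusted p under 0.05 for the difference. HSPA5 and ERO1A lie far right with 92.1 values of -0.21 and -0.33, CRELD2 and ERO1B lie far left near zero in 92.1, and XBP1 (-1.22 in 92.1) lies lowest.

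Before treatment the lines already carried different levels of this machinery. In DMSO, 22 of the 37 genes were lower in 92.1 than in MP38, 11 were higher and 4 did not pass, where 41.2% and 38.5% of 24958 genes were called in those directions. The median difference was -0.43 for the 37 genes and -0.05 for all. Line, count table and sequencing depth differ together here and cannot be told apart. HYOU1 had the largest gap, a log2 difference of -2.77 (SE 0.12, adjusted p = 1.33e-12), and EDEM2 followed with -1.88 (SE 0.06, adjusted p = 7.38e-14). HERPUD1 at -1.74 (SE 0.27, adjusted p = 2.17e-05), ERN1 at -1.505 (SE 0.13, adjusted p = 1.12e-08) and CREB3L2 at -1.45 (SE 0.06, adjusted p = 1.4e-12) were also lower in 92.1. Without DMSO library 3 of 92.1 the gap was -2.35 (adjusted p = 1.08e-17) for HERPUD1, past EDEM2 at -1.84 (adjusted p = 7.6e-21), and -1.73 (adjusted p = 2.43e-19) for XBP1, which was at -1.02 (SE 0.29, adjusted p = 0.00384) with it. DERL1 with 1.47 (SE 0.05, adjusted p = 4.38e-14) and ERO1A with 1.14 (SE 0.05, adjusted p = 5.18e-12) were the most raised in 92.1. All 3 sensors were lower in 92.1. Per length, CALR was the most abundant of the 37 in both lines, at 229.6 ± 53.7 FPKM (SD, n = 3) in MP38 and 227 ± 50.5 FPKM in 92.1 with DMSO. PDIA4 at 156 ± 22.96 and HSPA5 at 147 ± 34.5 FPKM followed in MP38 within each other's spread. CANX at 101 ± 1.16 and PDIA3 at 101 ± 8.73 FPKM, likewise within their spread, followed in 92.1. The sensors EIF2AK3 (1.58 ± 0.15 FPKM in MP38) and ERN1 (0.8 ± 0.198 FPKM in 92.1) were the scarcest. FPKM were scaled in each line's table separately.

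The genes with an ER stress element in the promoter window went in both directions in MP38. Of the 11 genes with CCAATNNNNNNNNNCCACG or ATTGGNCCACG, 2 rose (HSPA5 and CANX), 5 fell and 4 did not pass in MP38. In 92.1 5 fell and 6 did not pass, and all 11 log2 fold changes were below 0, with a median of -0.39. Without DMSO library 3 of 92.1 HSPA5, CALR, CRELD2 and SDF2L1 were called lower too, and ERO1B was called higher, 0.15 (adjusted p = 0.0235). HERPUD1 stayed uncalled there. Without DMSO library 3 of MP38 HSP90B1 and HYOU1 were called lower in that line as well. Over all genes, as above, 26.9% rose and 25.4% fell in MP38 and 20.3% and 19.6% in 92.1. HSPA5 and CALR, whose elements are printed above, moved by 0.62 and -0.48 in MP38.

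A further 111 genes of the same pathways, not among the 37, were listed by role. In MP38 43 rose, 33 fell and 32 did not pass of 108 tested, and in 92.1 3 rose, 48 fell and 58 did not pass of 109 tested, beside the 26.9% and 25.4% of all genes that rose and fell in MP38 and the 20.3% and 19.6% in 92.1. The counts without DMSO library 3 of the line were 40 rises and 35 falls in MP38 and 10 rises and 71 falls in 92.1. Of 14 genes of the PERK arm 9 rose and 5 did not pass in MP38, and 8 rose without DMSO library 3, where CEBPG went from 0.16 to 0.08 (adjusted p = 0.097). PPP1R15A (GADD34), which recruits the phosphatase of eIF2alpha, was at 157, 159 and 123 CPM with DMSO and 391, 396 and 512 CPM with VE-822 (log2 fold change 1.57, SE 0.09, adjusted p = 8.18e-12). DDIT3 (CHOP), a transcription factor of prolonged ER stress, was at 77.7, 73.5 and 50.8 CPM with DMSO and 138, 139.7 and 170.4 CPM with VE-822 (log2 fold change 1.15, SE 0.10, adjusted p = 7.32e-09). Both rose with no overlap. TRIB3, a CHOP target that damps ATF4, rose in MP38 by 0.66 and NFE2L2, which encodes NRF2, by 0.48. The arm was not uniform: ATF4 itself was at 0.06 (SE 0.05, adjusted p = 0.303) and its target ASNS at -0.04 (SE 0.04, adjusted p = 0.469).

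In 92.1 6 of the 14 PERK arm genes fell and 8 did not pass. ATF4 was at 449, 448 and 1159 CPM with DMSO and 388, 373 and 387 CPM with VE-822 (log2 fold change -0.84, SE 0.33, adjusted p = 0.0722), with DMSO library 3 far above the other 5 libraries. ASNS was at 2.60, 1.81 and 35.2 CPM with DMSO and 1.17, 1.32 and 1.52 CPM with VE-822 (log2 fold change -3.31, SE 1.04, adjusted p = 0.0335). DDIT3 was at -0.82 (SE 0.44, adjusted p = 0.17), TRIB3 at -1.52 (SE 0.58, adjusted p = 0.0663) and PPP1R15A at 0.14 (SE 0.17, adjusted p = 0.556). Without DMSO library 3 ATF4 was at -0.26 (adjusted p = 6.92e-07), ASNS at -0.75 (adjusted p = 0.000486), TRIB3 at -0.29 (adjusted p = 1.36e-05), DDIT3 at 0.02 (adjusted p = 0.858) and PPP1R15A at 0.38 (adjusted p = 4.64e-06). Over the arm, 4 of the 14 then rose and 8 fell. The largest rises were those of ATF3, 1.35 (adjusted p = 5.99e-09), and SESN2, 1.04 (adjusted p = 6.93e-13). With all libraries these 2 genes were at -0.06 (adjusted p = 0.954) and -0.49 (adjusted p = 0.589). The difference in response was called toward MP38 for 10 of the 14, and without the DMSO libraries numbered 3 of both lines for 11, with 3 toward 92.1. Over all genes 18.8% were called toward MP38. Without those libraries 21.1% were, with 23.9% toward 92.1. PPP1R15B, the constitutive partner of the same phosphatase, fell with no overlap from 79.3, 75.2 and 89.01 CPM to 53.3, 51.6 and 52.6 CPM (log2 fold change -0.63, SE 0.07, adjusted p = 0.000132), while it rose in MP38 by 0.37.

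Of the genes that work beside IRE1, 4 of 4 tested rose in MP38 and 3 of 4 fell in 92.1. The difference was called toward MP38 for 4 of 5, and without DMSO library 3, 4 of 4 fell in 92.1. Over all genes 26.9% rose in MP38 and 18.8% differed toward MP38. In 92.1 19.6% of all genes fell, or 29% without that library. TMBIM6 (BI-1), an ER membrane protein that binds IRE1, rose in MP38 from 269, 266 and 253 CPM to 432, 434 and 456 CPM (log2 fold change 0.75, SE 0.04, adjusted p = 2.87e-12) and fell slightly in 92.1, -0.13 (SE 0.04, adjusted p = 0.0408). RTCB, the ligase that joins the XBP1 exons, rose in MP38 by 0.20 and fell in 92.1, -0.14 (SE 0.04, adjusted p = 0.03). TRAF2, an adaptor of IRE1, fell in 92.1 (-0.49).

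COPII genes rose in 7 of 13 in MP38, among them SEC23A by 0.52, SEC31A by 0.48 and SAR1B by 0.47, and 1 fell. In 92.1 5 of 13 fell, among them the cargo receptor LMAN1 (-0.37), the retrieval receptor KDELR2 (-0.36) and SEC23A (-0.20). Without DMSO library 3, 9 of 13 fell. Over all genes 26.9% rose and 25.4% fell in MP38, and in 92.1 19.6% fell, or 29% without that library. Of 20 translocon and oligosaccharyl transferase genes, 7 rose and 4 fell in MP38, and 1 rose and 8 fell in 92.1. These counts were 7 and 6 in MP38 and 1 and 13 in 92.1 without DMSO library 3. SEC61G, the small partner of SEC61B, rose in MP38 from 31.5, 31.5 and 29.9 CPM to 56.6, 57.9 and 59.8 CPM (log2 fold change 0.91, SE 0.04, adjusted p = 3.52e-13). DAD1 rose there by 0.57 and the signal peptidase subunit SEC11A fell (-0.45). In 92.1 the transferase subunit STT3A fell (-0.41), SPCS2 fell (-0.34) and SSR4 rose by 0.29.

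The counts in this paragraph stand beside 26.9% of all genes that rose and 25.4% that fell in MP38. In 92.1 these shares were 20.3% and 19.6%. Without DMSO library 3 they were 24.4% and 23.2% in MP38 and 26.8% and 29% in 92.1. Of 27 other ER chaperones and glycan enzymes, 16 fell and 5 rose in MP38, and 14 fell and 1 rose in 92.1. Without DMSO library 3, 17 fell and 5 rose in MP38 and 17 fell and 2 rose in 92.1. CALU, a calcium-binding lumenal protein, rose by 0.35 in MP38 and fell (-0.48) in 92.1. CNPY2 (-0.71) and DNAJC10 (-0.37) fell in MP38, and the thioredoxin-like TMX4 and TMX1 fell in 92.1 (-0.78 and -0.57). Of the other degradation genes, 8 of 18 tested rose and 4 fell in MP38, led by ERLIN2 at 0.43, NPLOC4 at 0.27 and UBE2G2 at -0.26. In 92.1 1 of 19 rose and 6 fell, with ERLIN1 at -0.64, RNF139 at -0.32 and DERL3 at -1.40, the last at about 1 CPM or below. Leaving DMSO library 3 out gave 6 rises and 4 falls in MP38, and 2 rises and 11 falls in 92.1. Processing enzymes and relatives of ATF6 and CREB3 gave 3 rises and 5 falls of 9 in MP38, with MBTPS2, a Golgi protease that cuts ATF6, at 0.31, NFYA at 0.33 and CREB3L4 at -0.49. In 92.1 5 of 9 fell, among them the ER stress element binders NFYB at -0.53, NFYC at -0.31 and YY1 at -0.29. In this list 3 rose and 4 fell in MP38, and 1 rose and 7 fell in 92.1, without DMSO library 3. The kinases GCN2 (EIF2AK4), PKR (EIF2AK2) and HRI (EIF2AK1), which also phosphorylate eIF2alpha, all fell in MP38 (-0.16, -0.23 and -0.12), and of them EIF2AK2 fell in 92.1 (-0.20); without DMSO library 3 of 92.1 it was at -0.31 (adjusted p = 1.36e-07) and EIF2AK1 at -0.25 (adjusted p = 7.71e-07).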

How the data were processed

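Poly(A) RNA of 12 libraries was sequenced, and the authors deposited a table of raw read counts and a table of FPKM per gene for each line. Per the submitters' processing notes reads were handled with featureCounts 2.0.6, STAR 2.7.11a and cutadapt 4.8 (build GRCh38.p13); whether counting used strand is not given in the sources used here. Of the 37 genes 21 share their span with another annotated feature, 12 of them with a protein-coding gene, where reads may be split or lost (CRELD2 with ALG12 and TXNDC5 with its readthrough transcript, for example). The FPKM deposited by the authors served for levels per length and for 1 alternative.

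Counts were analysed in edgeR 4.0.16 (R 4.3.3): filterByExpr (minimum count 10, minimum total 15), TMM factors, a quasi-likelihood fit and Benjamini-Hochberg adjustment over all genes tested, at 0.05. Each line was fitted alone for VE-822 against DMSO, and all 12 libraries together for the difference in response and for the DMSO groups. CPM use TMM library sizes. Alternatives were DESeq2 1.42.0, limma 3.58.1 (on log2(FPKM + 1), and voom), RLE factors, library size only, no filter, a robust fit, a replicate block, and each library left out. The omission of both DMSO libraries numbered 3 was added after the data were seen. Simulated counts with known fold changes were used to test the edgeR and DESeq2 fits of each line and of the difference. The simulation held no outlying library such as DMSO library 3. The DMSO contrast and the other alternatives were not simulated. Promoter windows came from RefSeq (GRCh38.p14); protein sequences were not used here.

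The 37 genes, the role groups and the pathway lists were chosen with earlier results of these data known. Library values are given for the 3 sensors, HSPA5, HSP90B1 and XBP1, for the 4 highest and 4 lowest called fold changes in each line and for the 5 smallest adjusted p-values of the difference. From the pathway lists ATF4, DDIT3, PPP1R15A, TRIB3 and ASNS are named, with up to 3 called genes of smallest adjusted p per list and line. Library values of CALR and HERPUD1, and the fold changes of ATF3 and SESN2, were added after they were seen. ERN2 and CREB3L3 passed the filter in neither line and DERL3 only in 92.1.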

Additional observations from a re-analysis of the deposited data

Results flagged for a closer look

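For 21 of the 37 genes the test of the difference in response between the lines was passed. Line, count table and sequencing depth go together in this test, and no drug concentration is given, so these cannot be told apart. Values are log2 fold changes in 92.1 minus those in MP38, with the adjusted p in edgeR. The change in 92.1 was the more negative for XBP1 (-1.19), ERO1A (-0.87), HSPA5 (-0.81), HSP90B1 (-0.57), CANX (-0.57), PDIA6 (-0.55), CREB3L2 (-0.46), EDEM1 (-0.40), TXNDC5 (-0.37), SEC23B (-0.36), DERL1 (-0.33) and SEC61B (-0.29). It was the more positive for WFS1 (0.67), ERO1B (0.63), CRELD2 (0.62), DNAJB9 (0.47), SYVN1 (0.41), OS9 (0.39), DNAJC3 (0.38), EDEM3 (0.28) and SEL1L (0.23). The adjusted p ran from 1.33e-07 for ERO1A to 0.0329 for DNAJC3. 15 of the 21 were called in all alternatives and with each library left out; XBP1, CRELD2, DNAJB9, DNAJC3, SEL1L and SYVN1 were not. Of these, DNAJB9 and SYVN1 lost the call without control libraries of MP38 (adjusted p up to 0.067), DNAJC3, SEL1L and CRELD2 also without single treated libraries (adjusted p up to 0.17), and XBP1 without DMSO library 3 of MP38, -1.15 (adjusted p = 0.0584). XBP1 lost it in DESeq2 (adjusted p = 0.0688), the robust fit (adjusted p = 0.12) and limma-voom (adjusted p = 0.058) as well. DNAJC3, SEL1L and CRELD2 lost it in DESeq2 too (adjusted p up to 0.076). For XBP1 the value without DMSO library 3 of 92.1 was -0.52 (adjusted p = 5.63e-06), and for HSPA5 it was -0.98 (adjusted p = 4.86e-06).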

How the results depend on the processing

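In MP38 the count of genes that fell went from 15 to 8 in the robust fit, and in 92.1 the count that rose went from 1 to 4 with library size only and with limma on log2(FPKM + 1), and to 2 with the replicate block. Leaving out 1 library at a time gave 8 to 11 rises and 12 to 22 falls in MP38, 0 to 4 rises and 13 to 24 falls in 92.1, and 4 to 10 toward 92.1 and 12 to 17 toward MP38 for the difference. The extremes came without DMSO library 3 in both lines (22 falls in MP38; 4 rises and 24 falls in 92.1) and, for the difference, without DMSO library 1 of MP38 (4) or 2 (5). The direction reversed, with a call in 1 of the 2 fits compared, for ERO1B in 92.1 without DMSO library 3 (0.15, against -0.18 without DMSO library 1). It did so for the DMSO contrast of P4HB (-0.13) and SEL1L (-0.0097) with library size only. It also did so for the difference of HERPUD1 without both DMSO libraries numbered 3 (0.47). The cause was not tested. Sign changes with no call in either fit are not counted here. Among them are ERN1 in 92.1 (down to -0.04) and the difference of HERPUD1 (up to 0.26) with 1 library left out. Of the calls with all libraries, 13 of 26 in MP38, 13 of 17 in 92.1, 15 of 21 for the difference and 32 of 33 for the DMSO contrast stood in all alternatives. Alternatives that kept all libraries lost a call 20 times in MP38 and 10 times in 92.1. They gained a call 7 times in MP38 and 18 times in 92.1. The median of all genes moved by 0.23 in 92.1 and by 0.10 for the difference with no filter; with library size only the shift was -0.22 for the DMSO contrast. Replicate numbers were not used to pair the samples outside the replicate block. Same-numbered libraries correlated at -0.08, -0.03 and -0.13 in MP38. In 92.1 they correlated at 0.10, 0.10 and 0.12, and each DMSO library correlated best with its own number, a hint from the data only. With the replicate block MP38 had 11 rises and 14 falls, 92.1 had 2 and 16, and the difference 9 and 13. Over genes, the chi-square per gene between libraries of a group was 2.39 to 8.32, but 93.0 and 93.6 for DMSO library 3 of 92.1 against the other 2, so no pair agreed within sampling noise.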

Other observations

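VE-822 library 3 of MP38 was the highest of the 3 treated libraries in 24 of the 37 genes, where 46.2% of the genes at or above 5 CPM were highest there. HSPA5 (1735 against 1327 and 1321 CPM), HYOU1 (739 against 617 and 624 CPM), PPP1R15A (512 against 391 and 396 CPM) and DDIT3 (170.4 against 138 and 139.7 CPM) were higher in it, while MANF (47.3 against 46.01 and 45.9 CPM) and CALR (455 against 449.7 and 459.6 CPM) lay close to the other 2.

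The 37 genes together took up 0.81% ± 0.11 of all counts in MP38 with DMSO and 0.79% ± 0.02 with VE-822 (SD, n = 3). In 92.1 they took up 0.63% ± 0.03 with DMSO and 0.53% ± 0.01 with VE-822, and the groups did not overlap there.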
